A study of Mus musculus with 12 samples.

Results

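G1E-ER4 cells given both active SREBP2 and β-estradiol (EST) were compared with the same cells given neither. G1E-ER4 is a mouse erythroid progenitor line that lacks its own GATA1 and carries a GATA1 fusion protein with the estrogen receptor's ligand-binding domain, which makes GATA1 activity dependent on EST. The SREBP2+EST group received a retrovirus with the active fragment of SREBP2, amino acids 1 to 468, for 24 h and EST for 6 h. The Vector group received the empty retrovirus for 24 h and no EST, and all groups share the line, its GATA1 fusion and the transduction. Both groups of 3 mRNA libraries, 6 of the 12 libraries in the series, were chosen by the sample titles. The other 6 libraries serve as context, with 3 from cells given EST alone (Vector+EST) and 3 from cells given SREBP2 alone (SREBP2). The sample protocols give 500 nM as the EST dose, and the series design text gives 200 nM. The model is a single cell line with an introduced SREBP2 fragment, and the labels do not say whether the libraries of a group came from separate cultures, so p-values measure the spread between these libraries, which may be technical.

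SREBP2 is a transcription factor that cells hold at the endoplasmic reticulum when sterols are plentiful. When sterols fall, its amino-terminal part is cut free, enters the nucleus and turns on the genes of cholesterol synthesis and of lipoprotein uptake, and the active fragment used here needs no such release. GATA1 is the main regulator of erythroid maturation. It turns on genes of heme, globin and the red cell membrane and shuts down progenitor genes such as Gata2, Kit and Myc. A gene that both agents move can respond to the pair in several ways. On the log2 scale the combined effect can equal the sum of both single effects, it can equal the larger of them, it can lie between the larger and the sum, or it can fall below the larger.

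The strain label is C57BL/6J, and the cell type label reads embryonic stem cells. The 4 embryonic stem cell markers found in the count table, of a list of 6, summed to between 0.053 and 0.65 CPM (counts scaled to library size) per library. The 8 erythroid markers summed to between 5762 and 7860 CPM, and none of them was at 0 in any library. By these markers the RNA is erythroid, against the cell type label. Totals ran from 18700893 to 19152254 counts per library, and the detection floor of 3 counts was 0.153 to 0.163 CPM. Levels below are in CPM after TMM scaling, and each library is named by its column's number in the deposited table. SREBP2 library 1 and SREBP2+EST library 1 each lay nearer to the other's group than to their own on the first 2 principal components. The labels do not settle whether these 2 columns were exchanged, which was not tested. Of the low-level transcripts described at the end, Col1a1 stood at 0.053 CPM in SREBP2 library 1 (0.0542 CPM in each of the other 2). In SREBP2+EST library 1 it stood at 6.50 CPM (13.8 and 6.84 CPM in the others). Pdgfrb stood at 4.61 CPM in SREBP2 library 1 (8.45 and 8.30 CPM) and at 9.15 CPM in SREBP2+EST library 1 (5.33 and 5.01 CPM). Col1a1 also differed within Vector+EST, at 0, 0 and 13.4 CPM in libraries 1, 3 and 5, so it cannot show the group of a library. Counts of the difference from SREBP2 alone and the classes below rest on both libraries, and the main counts are also given without the pair. In Vector+EST library 5 and all 3 SREBP2+EST libraries, a set of low-level transcripts differed from the other 8 libraries.

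Srebf2 (Entrez 20788), the mouse gene for SREBP2, stood at 370, 358 and 355 CPM in Vector libraries 1, 4 and 5 and at 814, 801 and 809 CPM in SREBP2+EST libraries 1, 2 and 5. The groups did not overlap, and the combined effect on the log2 scale was 1.16 ± 0.03 (SE; adjusted p = 4.12e-14, edgeR). The study's supplement measures human SREBP2 in its overexpressing cells, and how many reads of a human fragment would count toward the mouse gene is not known, so these levels may not show its full amount. Srebf2 stood at 432 to 456 CPM with EST alone and at 797 to 837 CPM with SREBP2 alone, so that the combined level lay within the range of SREBP2 alone.

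The first comparison asked how many genes the combined treatment changed against Vector. It changed 8127 of 11177 tested genes, or 72.7%, at an adjusted p under 0.05 (edgeR quasi-likelihood test, Benjamini-Hochberg adjustment). Of these, 4309 (38.6% of genes tested) were higher and 3818 (34.2%) were lower. An estimated fold over 1.5 was reached by 3902 of the genes called (34.9% of genes tested), with 2249 higher (20.1%) and 1653 lower (14.8%). The median log2 value over all genes tested was 0.04. Among genes whose average log2 CPM reached 3, the 6 largest rises included those of Ppef1, Scd1, Fam50b, Prune2 and Lmtk3. The 6 largest falls were those of Slc4a1, Gda, Lyl1, Map1a, Ikzf4 and Serpinb9c.

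Scd1 (20249), the stearoyl-CoA desaturase that makes monounsaturated fatty acids, stood at 0.154, 0.153 and 0.256 CPM in Vector and at 32.3, 28.9 and 31.3 CPM in SREBP2+EST, which is 7.31 ± 0.35 on the log2 scale (SE; adjusted p = 1.29e-15, edgeR). Its level was 31.0 to 32.2 CPM with SREBP2 alone and 0.0523 to 0.206 CPM with EST alone. Scd1 was thus near the floor in both groups without SREBP2 and about equally high in both groups with it. Prune2 (353211) stood at 0.256, 0.357 and 0.256 CPM in Vector and at 21.9, 16.8 and 16.6 CPM in SREBP2+EST. Lmtk3 (381983), a membrane kinase, stood at 0.513, 0.561 and 0.614 CPM in Vector and at 23.8, 21.4 and 21.9 CPM in SREBP2+EST. All of these genes were also under 1 CPM with EST alone, and none overlapped between Vector and SREBP2+EST libraries, as was the case for 76.4% of all genes tested. Ppef1 (237178), a protein phosphatase, had 2 counts in all Vector libraries together against 912 in SREBP2+EST, a ratio of 462 with an exact 95% counting interval from 127 to 3818, which covers counting error only.

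The largest falls were also seen with either agent alone. Slc4a1 (20533), the band 3 anion exchanger of the red cell membrane, stood at 67.0, 66.1 and 69.6 CPM in Vector and at 3.20, 3.45 and 3.82 CPM in SREBP2+EST, which is -4.27 ± 0.12 on the log2 scale (SE; adjusted p = 5.91e-15, edgeR). It stood at 2.46 to 3.13 CPM with EST alone and at 3.39 to 5.15 CPM with SREBP2 alone. Lyl1 (17095), a transcription factor of hematopoietic progenitors, stood at 350, 333 and 333 CPM in Vector and at 23.7, 19.5 and 19.8 CPM in SREBP2+EST (log2 fold change -4.01 ± 0.15). Ikzf4 (22781), a zinc finger factor, stood at 28.2, 28.2 and 28.5 CPM in Vector and at 2.44, 1.62 and 1.78 CPM in SREBP2+EST. Gda, which deaminates guanine, Map1a, a microtubule-associated protein, and Serpinb9c, a protease inhibitor, had combined log2 fold changes of -4.14, -4.01 and -3.59. For each of these 6 genes both single effects passed the threshold downward (edgeR), against 35.5% of genes tested for EST and 33.8% for SREBP2. For none of them did the combined effect differ past the threshold from either single effect. Over all genes tested it did so for 0% against SREBP2 alone and for 21.9% against EST alone.

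The second comparison asked whether the combined effect equals the sum of the single effects. The difference combined minus sum, which is also the EST effect in SREBP2 cells minus the EST effect in Vector cells, passed the threshold for 6591 genes, or 59% of genes tested (3326 positive, 29.8%, and 3265 negative, 29.2%). The Vector libraries enter both the sum and the combined effect, so these values share error. Among the 3902 genes over 1.5-fold, the 2249 higher genes had a median combined log2 value of 1.06, with medians of 0.88 for EST alone, 1.02 for SREBP2 alone and 1.88 for their sum. The 1653 lower genes had a median of -0.98 for the combined effect, -0.93 for EST alone, -0.90 for SREBP2 alone and -1.83 for the sum. The median combined effect was thus near the median of each single effect and away from that of the sum.

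**Figure D1:**
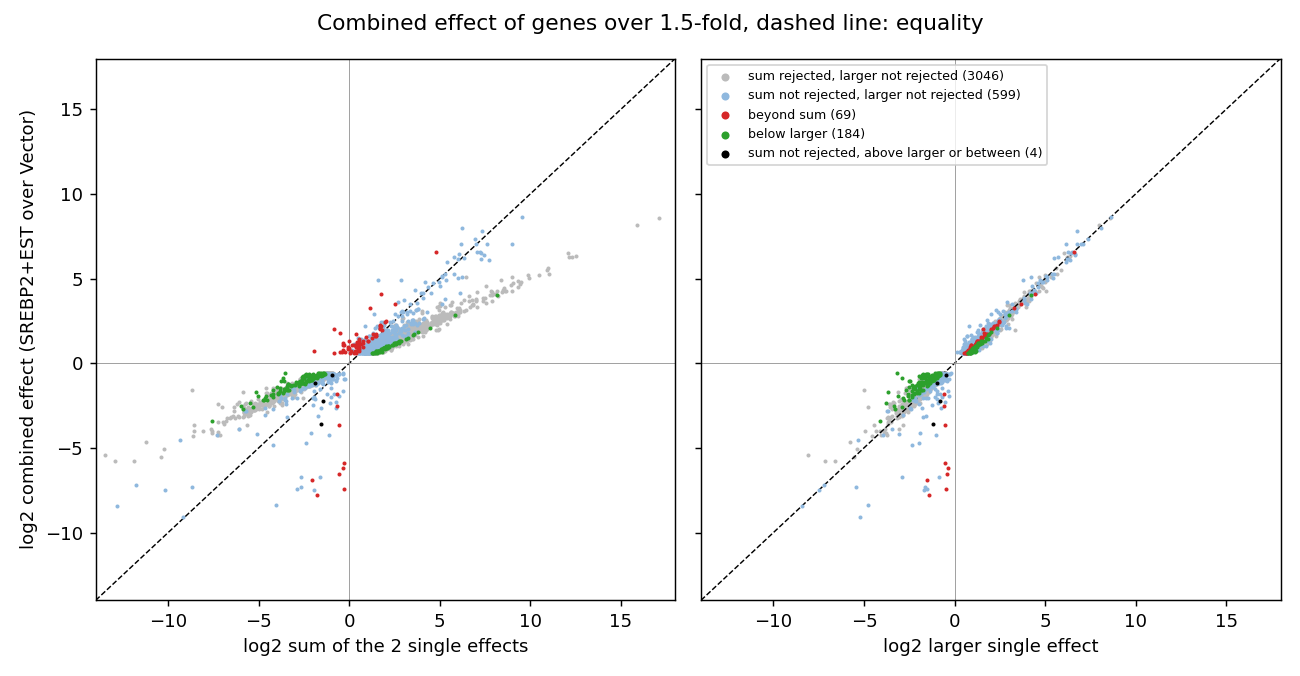
Log2 combined effect (vertical axis) of the 3902 genes over 1.5-fold, against the sum of both single effects (left, horizontal axis) and against the larger single effect (right), one point per gene coloured by class, with equality dashed. Most points lie off the line for the sum and along it for the larger single effect; the red points below zero on the left are the 9 lower genes beyond the sum, all at low level (at most 7.06 CPM).

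Each of the 3902 genes was placed in a class by the tests of the combined effect against the sum and against the larger single effect. For 3046 genes (78.1% of the 3902) the sum was rejected as too large and the difference from the larger single effect did not pass the threshold, and without the pair of libraries that stand apart these were 2554 genes (62.6% of 4080). The larger single effect was that of SREBP2 for 1640 of the 3046 and that of EST for 1406, and for 1152 and 1402 of the 2554. For 184 genes (4.72%) the combined effect fell below the larger single effect. That larger effect was EST in all 184, which the rule fixed in advance, since 0 of 11177 genes passed against SREBP2 alone. For 69 genes (1.77%) the combined effect went beyond the sum, and for 1 gene, Utp20, it lay between the larger single effect and the sum. The sum was not rejected for 602 genes, of which 3 lay above the larger single effect and 599 could not be told from it either. Without SREBP2 library 1 and SREBP2+EST library 1, 391 genes lay between the larger effect and the sum instead of 1, 300 fell below the larger effect, and 37 lay above the larger effect with the sum not rejected.

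**Figure D2:**
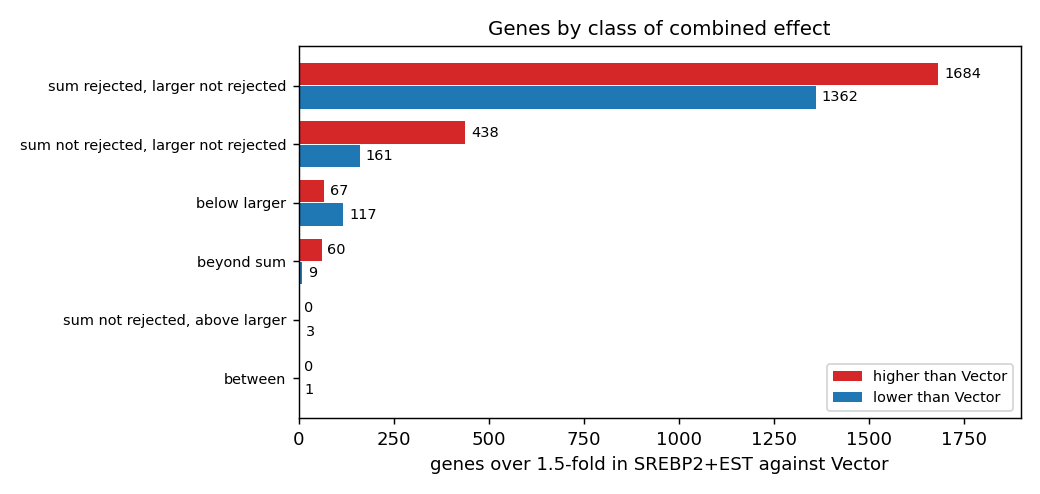
Number of genes over 1.5-fold in SREBP2+EST against Vector (horizontal axis) in each class of combined effect (vertical axis), with higher genes in red and lower genes in blue. The class with the sum rejected and the larger single effect not rejected holds 1684 higher and 1362 lower genes, and the class beyond the sum 60 higher and 9 lower genes.

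A difference that misses the threshold does not show equality, so 95% intervals were used beside the tests. Of the 3046 genes under the sum and not told apart from the larger effect, 2684 had an interval within 1.5-fold of it. The interval of the difference from SREBP2 alone lay within 1.5-fold for 3127 of the 3902 genes (80.1%), and without the pair for 2872 of the 3900 of them then tested (73.6%). The interval of the difference from EST alone lay within 1.5-fold for 2666 genes (68.3%), against 2640 (67.7%) without the pair. For the sum it did so for 235 genes (6.02%), against 411 (10.5%) without the pair. In the direct test of SREBP2+EST against SREBP2, no gene passed the threshold with edgeR (0% of 11177), and 506 genes (4.53%) had an unadjusted p under 0.05. DESeq2 called 12 genes in the same comparison. Leaving out SREBP2 library 1 and SREBP2+EST library 1 raised the count to 1567 genes, 698 of them higher in SREBP2+EST, with a median absolute log2 difference of 0.23 and 108 genes over 1.5-fold. The direct test of SREBP2+EST against Vector+EST called 2448 genes (21.9%), with 1560 higher (14%) and 888 lower (7.94%) in SREBP2+EST. Leaving out 1 library gave 1263 to 1798 higher and 510 to 1286 lower, the lowest without Vector+EST library 3 and the highest without SREBP2 library 1, the replicate block gave 1005 and 203, and leaving out the pair gave 1896 and 1576. With TMM scaling and over 1.5-fold, 561 genes (5.02%) were higher and 30 (0.268%) were lower. With library totals in place of TMM scaling and no fold limit, the split was 1292 higher and 1768 lower.

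EST alone changed 7893 genes (70.6% of genes tested), 35.2% higher and 35.5% lower, and SREBP2 alone changed 7987 (71.5%), 37.7% higher and 33.8% lower. The classes differed with the direction of these single effects. Both single effects passed the threshold in the direction of the combined effect for 3416 of the 3902 genes, and 3041 of these were under the sum and not told apart from the larger effect. Only the SREBP2 effect passed for 257 genes, only the EST effect for 69 and neither for 84. The single effects passed in opposite directions for 76 of the 3902 genes, and in all 76 SREBP2 raised the gene, EST lowered it and the combined treatment left it higher. Of these 76 genes, 60 went beyond the sum and 16 had a sum that was not rejected. All 60 higher genes beyond the sum came from this group.

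The 60 higher genes that went beyond the sum stood in the combined treatment near their levels with SREBP2 alone. Their median log2 value was 1.21 for the combined effect, 1.24 for SREBP2 alone, -0.64 for EST alone and 0.51 for the sum. The interval of the difference from SREBP2 alone lay within 1.5-fold for 57 of the 60 (56 without the pair). The SREBP2 and SREBP2+EST libraries did not overlap for 2 of the 60, against 7.43% of genes tested. Without the pair, which leaves 2 libraries a group, they overlapped for 20 of the 60 (33.3%), against 45.4% of genes tested. The lists of sterol synthesis, sterol uptake and sensing, and fatty acid synthesis hold 21 of the 60 (35%) and 38 of the 3902 classed genes (0.974%), and 38 of the 60 are in no list examined. On the linear CPM scale, where the sum adds amounts and not folds, 32 genes went beyond the sum, all of them higher, and 30 of these are among the 60.

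Hmgcs1 (208715), the HMG-CoA synthase near the start of the mevalonate pathway, stood at 750, 759 and 740 CPM in Vector, 432, 418 and 425 CPM with EST alone, 1730, 1801 and 1826 CPM with SREBP2 alone, and 1817, 1679 and 1682 CPM in SREBP2+EST. EST alone was thus the lowest group and both SREBP2 groups lay well above Vector. SREBP2+EST libraries 2 and 5 lay below every SREBP2 library, and library 1, which stands apart, within their range. The combined log2 fold change was 1.203 ± 0.04 (SE; adjusted p = 5.55e-14, edgeR), and it exceeded the sum by 0.77 ± 0.05 (adjusted p = 2.44e-09). Some reads of Hmgcs1 may be shared with the predicted gene Gm38481, which followed the same pattern.

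Promoter sequence is shown for Hmgcs1, the member of the sterol lists whose window holds the core letters of the sterol regulatory element. It is also shown for Cyp51 and Idi1, other sterol synthesis genes with the same class and without those letters. Each is the 250 bases before the RefSeq transcript start in GRCm38.p6, written 5′ to 3′ on the gene's strand. Capitals mark TCACCCCAC, the sterol element core, and GGGCGG or its reverse complement CCGCCC, the GC box that SP1 binds.
Hmgcs1 (chr13:119690101-119690350, plus strand): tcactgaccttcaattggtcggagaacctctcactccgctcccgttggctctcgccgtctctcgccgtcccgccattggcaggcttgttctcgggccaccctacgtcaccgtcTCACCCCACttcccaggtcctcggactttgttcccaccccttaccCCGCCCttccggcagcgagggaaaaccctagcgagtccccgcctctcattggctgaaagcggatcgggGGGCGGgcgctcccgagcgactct
Cyp51 (chr5:4104698-4104947, minus strand): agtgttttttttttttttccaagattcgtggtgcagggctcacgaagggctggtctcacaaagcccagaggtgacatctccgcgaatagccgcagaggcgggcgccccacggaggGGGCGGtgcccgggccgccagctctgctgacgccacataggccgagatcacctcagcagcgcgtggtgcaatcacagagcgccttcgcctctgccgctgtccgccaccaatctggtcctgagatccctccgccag
Idi1 (chr13:8885356-8885605, plus strand): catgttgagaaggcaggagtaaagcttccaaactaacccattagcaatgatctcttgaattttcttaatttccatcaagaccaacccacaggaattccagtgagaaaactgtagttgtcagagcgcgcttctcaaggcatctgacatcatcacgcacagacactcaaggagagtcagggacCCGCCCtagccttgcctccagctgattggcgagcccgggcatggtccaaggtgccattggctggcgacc
In Hmgcs1 the sterol element core began 137 bases before the start, with GC box letters at 92 and 24 bases before it. On either strand of the whole window of 300 bases, which adds the first 50 transcribed bases, TCACCCCAC occurred in 1 of the 15 sterol synthesis genes that have a window, in 1 of 15 fatty acid genes (Acsl1), in 1 of 46 higher genes beyond the sum (Hmgcs1 again), and in 0.663% of the 9055 tested genes with a window. The looser TCACNCCAC, which includes it, gave the same genes and 1.33%. GGGCGG occurred in 14 of the 15 sterol synthesis genes, in all 7 sterol uptake and sensing genes with a window, in 11 of 15 fatty acid genes (73.3%) and in 31 of the 46 higher genes beyond the sum (67.4%), against 67.3% of tested genes. The GATA letters AGATAA occurred in 0 of the 15 sterol synthesis genes, in 2 of the 7 uptake and sensing genes (Insig2 and Npc2), in 2 of 15 fatty acid genes and in 5 of the 46, against 8.4% of tested genes. TGATAA occurred in 1 of the 7 (Insig2) and in 0 genes of the other 3 sets, against 5.74% of tested genes.

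Across the sterol synthesis list, all 20 genes were higher in SREBP2+EST than in Vector, against 38.6% of genes tested, with a median log2 value of 1.63. Their median was 1.64 with SREBP2 alone and -0.25 with EST alone, where 14 of the 20 were lower and 2 were higher, against 35.5% and 35.2% of genes tested. Of the 20, 12 went beyond the sum, 6 had neither the sum nor the larger effect rejected and 2 were under the sum and not told apart from the larger effect, against 1.77%, 15.4% and 78.1% of the 3902 classed genes. All 20, the 12 among them, missed the threshold against SREBP2 alone, as did all 11177 genes tested. Sqle (20775), the squalene epoxidase, stood at 320, 307 and 306 CPM in Vector, 204 to 211 CPM with EST alone and 501, 444 and 469 CPM in SREBP2+EST, a log2 fold change of 0.60 ± 0.04 that exceeded the sum by 0.57 ± 0.06. The largest rises of the list were those of Tm7sf2, a sterol reductase (3.00 ± 0.06), Ebp, a sterol isomerase (2.99 ± 0.06), Lss, the lanosterol synthase (2.48 ± 0.04), and Pmvk, the phosphomevalonate kinase (2.45 ± 0.06). Ebp was one of the 2 genes of the list that EST alone raised. It stood at 52.7, 50.4 and 46.9 CPM in Vector, 97.1 to 109 CPM with EST alone, 378 to 413 CPM with SREBP2 alone and 408, 380 and 406 CPM in SREBP2+EST, so that the EST effect seen in Vector cells was not added (combined minus sum -1.05 ± 0.08). Tm7sf2 and Lss did not pass the threshold with EST alone (-0.13 and -0.07), and their combined effects lay 0.12 ± 0.09 and 0.05 ± 0.06 from the sum.

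Among the 10 tested genes of sterol uptake and sensing, 8 were higher and 2 were lower, against 38.6% and 34.2% of genes tested. Stard4 (170459), a sterol carrier, stood at 203, 206 and 209 CPM in Vector, 137 to 149 CPM with EST alone and 511, 467 and 460 CPM in SREBP2+EST, and went beyond the sum by 0.44 ± 0.06. Npc2 (67963), which carries cholesterol out of lysosomes, and Insig2 (72999), which retains SREBP in the endoplasmic reticulum, were raised by either agent, and their combined effects (2.35 and 1.35) lay 1.71 and 1.29 under the sum. The 2 lower genes were Scap, the SREBP escort protein (-0.37), and Tmem97, a cholesterol-responsive membrane protein (-0.32). Insig1 had between 0 and 2 counts per library and could not be tested.

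Of 18 fatty acid synthesis genes tested, 14 were higher and 2 were lower, against 38.6% and 34.2% of all genes tested, with a median log2 value of 1.11 for the combined effect, 1.15 for SREBP2 alone, -0.53 for EST alone and 0.43 for the sum. Fasn (14104), the fatty acid synthase, stood at 853, 817 and 847 CPM in Vector, 405 to 449 CPM with EST alone, 2215 to 2447 CPM with SREBP2 alone and 2412, 2117 and 2165 CPM in SREBP2+EST. Its combined log2 fold change was 1.41 ± 0.05, which exceeded the sum by 0.90 ± 0.07 (SE; edgeR adjusted p = 2.71e-08). Elovl6 (170439), a fatty acid elongase, stood at 126, 128 and 122 CPM in Vector, 38.6 to 40.3 CPM with EST alone, 288 to 325 CPM with SREBP2 alone and 316, 281 and 279 CPM in SREBP2+EST. EST alone gave the lowest level, SREBP2+EST libraries 2 and 5 lay below every SREBP2 library with library 1 inside their range, and the combined effect exceeded the sum by 1.59 ± 0.08, the widest margin of the list. Acly (104112), which makes cytosolic acetyl-CoA from citrate, exceeded the sum by 0.23 ± 0.08 (edgeR adjusted p = 0.0239), a call lost with the replicate block (0.0634), without Vector+EST library 3 (0.0705) and without SREBP2+EST library 1 (0.0627).

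Outside these lists, Fam50b and Nabp1 were among the genes with wide margins beyond the sum. Nabp1 (109019), a single-stranded DNA-binding protein, stood at 16.6, 15.7 and 15.6 CPM in Vector, 5.18 to 5.84 CPM with EST alone and 27.5, 24.3 and 21.9 CPM in SREBP2+EST (combined minus sum 1.48 ± 0.13). Fam50b (108161) stood at 0.308, 0.153 and 0.154 CPM in Vector and at 19.9, 21.4 and 19.2 CPM in SREBP2+EST. Its place beyond the sum rests on 0 to 0.106 CPM with EST alone, and its adjusted p for the difference from the sum, 0.0411, was 0.0503 or more in 8 of the alternatives. Pf4 (56744), a platelet chemokine, was the member of the megakaryocyte list beyond the sum, at 10.1, 9.43 and 8.91 CPM in Vector and 50.4, 41.9 and 41.2 CPM in SREBP2+EST. Its difference from the sum, 0.53 ± 0.19 (edgeR adjusted p = 0.0223), had an adjusted p of 0.0577 without Vector library 1 and 0.0621 without Vector+EST library 1.

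**Figure D3:**
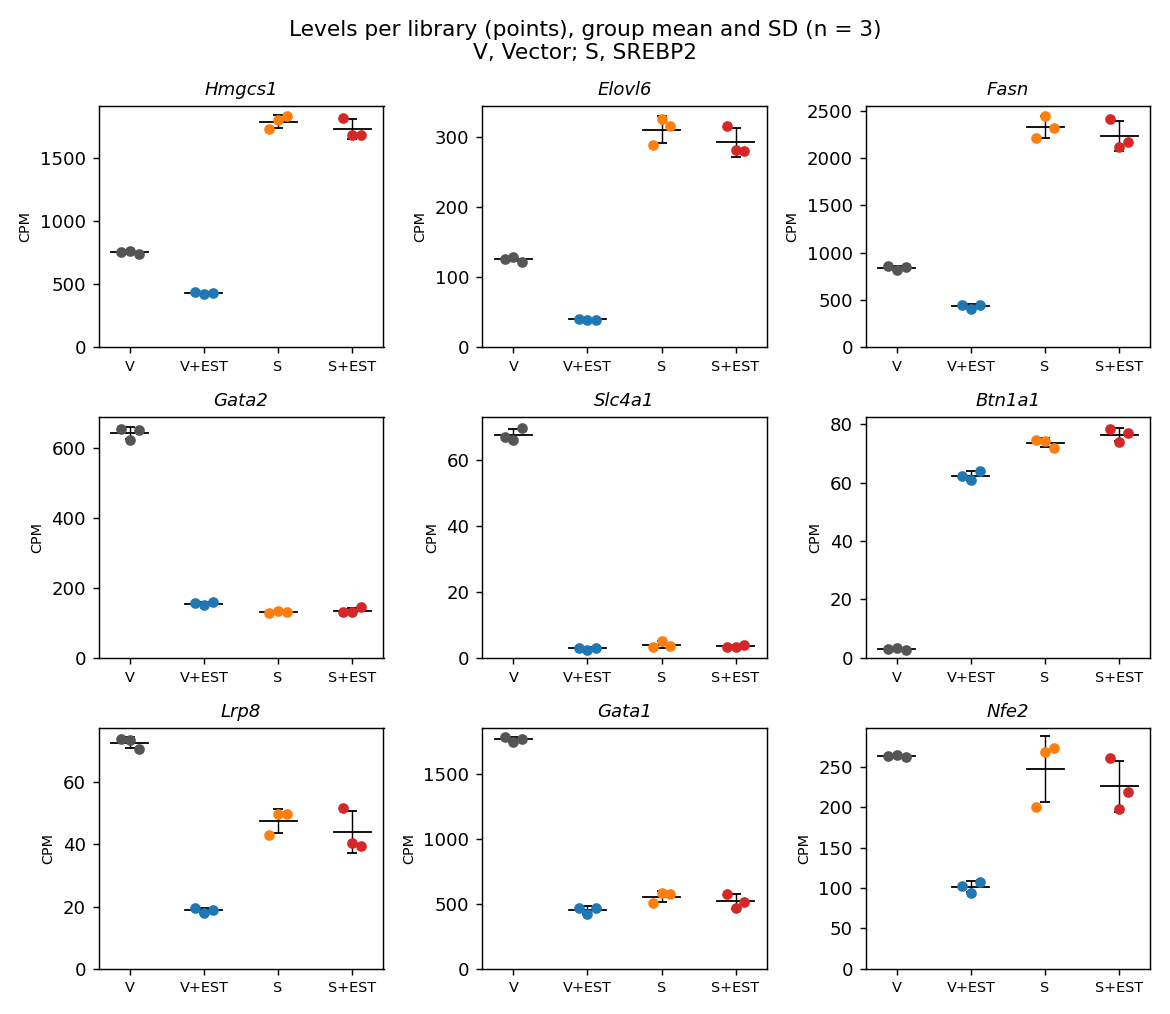
CPM (vertical axes, each from 0) of 9 genes in the 3 libraries of Vector (V), Vector+EST (V+EST), SREBP2 (S) and SREBP2+EST (S+EST); points are libraries, bars the mean and SD (n = 3). In the top row EST alone is the lowest group and both SREBP2 groups are the highest; in the middle row the 3 treated groups sit together; in the bottom row Lrp8, Gata1 and Nfe2 have their lowest mean with EST alone.

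Gata2, Btn1a1, Actn3 and Myc were among the genes under the sum and not told apart from the larger effect. Gata2 (14461), the progenitor factor that GATA1 replaces, stood at 656, 624 and 653 CPM in Vector, 151 to 160 CPM with EST alone, 128 to 133 CPM with SREBP2 alone and 130, 130 and 145 CPM in SREBP2+EST. Its combined log2 fold change was -2.25 ± 0.04, and the sum would have lain 2.10 ± 0.06 further down (SE; edgeR adjusted p = 4.43e-13). Btn1a1 (12231), a butyrophilin, stood at 3.03, 3.36 and 2.82 CPM in Vector, 60.8 to 64.1 CPM with EST alone, 71.9 to 74.7 CPM with SREBP2 alone and 78.3, 73.9 and 76.8 CPM in SREBP2+EST. Actn3 (11474), an actinin, stood at 0.667, 0.663 and 0.973 CPM in Vector and at 25.8, 27.4 and 24.0 CPM in SREBP2+EST, and either agent alone gave between 22.0 and 25.9 CPM. Its combined log2 fold change of 5.06 lay 4.85 ± 0.20 under the sum. Myc (17869) stood at 415, 391 and 395 CPM in Vector and at 168, 110 and 118 CPM in SREBP2+EST (log2 fold change -1.60 ± 0.14, 1.53 ± 0.20 short of the sum). Kit (16590), the stem cell factor receptor, stood at 331, 316 and 331 CPM in Vector and at 253, 226 and 226 CPM in SREBP2+EST, a log2 fold change of -0.47 ± 0.05 that did not reach 1.5-fold and so put it in no class.

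The erythroid lists did not move one way. Of 12 tested heme synthesis genes 6 were higher and 5 were lower, against 38.6% and 34.2% of genes tested, and the 6 over 1.5-fold were all under the sum and not told apart from the larger effect, as were 78.1% of all genes over 1.5-fold. Alas2 (11656), the first enzyme of erythroid heme synthesis, stood at 52.3, 52.0 and 52.0 CPM in Vector and at 186, 163 and 169 CPM in SREBP2+EST (log2 fold change 1.73 ± 0.06), where EST alone gave 130 to 142 CPM. Abcb10, a mitochondrial transporter, and Ppox, the protoporphyrinogen oxidase, rose by 2.38 and 1.81, while Alad, an early enzyme of the pathway, changed by -1.14. Of 15 red cell membrane genes 3 were higher and 11 were lower, read against the same shares. Sptb, the β-spectrin gene, rose by 1.52, and Epb42, which encodes protein 4.2, and Tmod1, an actin-capping protein, changed by -2.83 and -2.02.

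Globin genes share reads between near-identical copies, so single values are uncertain. Hba-a1 (15122), an adult α-globin gene, stood at 3223, 3018 and 3031 CPM in Vector and at 1535, 1556 and 1675 CPM in SREBP2+EST, a log2 fold change of -0.96 ± 0.04 that stopped 0.79 ± 0.06 short of the sum. Of 6 globin chain genes tested, 1 was higher and 3 were lower, against 38.6% and 34.2% of genes tested. The log2 values of Hbb-b1 and Hbb-b2 were -0.17 and 0.31, and both calls were lost under some alternatives.

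Of 16 erythroid regulators 6 were higher and 8 were lower, and of 12 progenitor regulators 6 were higher and 6 were lower, against 38.6% and 34.2% of genes tested. Tal1 (21349), a partner of GATA1, stood at 476, 477 and 485 CPM in Vector and at 104, 82.0 and 91.1 CPM in SREBP2+EST (log2 fold change -2.38 ± 0.09), and Gfi1b, a repressor needed for red cell formation, rose by 1.35 ± 0.05. The line lacks its own GATA1, so Gata1 reads (14460) may come wholly or in part from the fusion transgene. They stood at 1786, 1752 and 1771 CPM in Vector, 420 to 471 CPM with EST alone, 511 to 585 CPM with SREBP2 alone and 577, 469 and 513 CPM in SREBP2+EST. The combined log2 fold change of Gata1 was -1.77 ± 0.07, and it lay 0.20 above that of EST alone (edgeR adjusted p = 0.0429), which put Gata1 in the class below the larger effect. That call was lost in 12 of the alternatives, with adjusted p from 0.052 (DESeq2) to 0.2 (without Vector+EST library 3), and without the pair it was 0.0536. Spi1 (PU.1), a myeloid factor, was 0.39 higher, and Runx1, Fli1 and Meis1, progenitor factors, were 0.63, 1.04 and 1.26 higher.

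Nfe2 (18022), a factor of globin expression and platelet formation, stood at 263, 265 and 262 CPM in Vector, 102, 94.3 and 108 CPM with EST alone, 201, 268 and 273 CPM with SREBP2 alone and 261, 198 and 219 CPM in SREBP2+EST. EST alone was clearly the lowest group, and the SREBP2+EST libraries lay between the EST group and Vector. The combined log2 value was -0.22 ± 0.10 (SE; edgeR adjusted p = 0.0596), and it exceeded the sum by 1.25 ± 0.15 (adjusted p = 2.19e-06). Without SREBP2 library 1 and SREBP2+EST library 1 the combined value was -0.38 (adjusted p = 1.87e-07), and without either one alone its adjusted p was 0.00664 or 0.0057. With all libraries kept it also passed with RLE scaling (0.0374), library totals (0.0154), no filter on low counts (0.0202) and at least 10 counts in every library (0.0288), and it missed with DESeq2 (0.083) and the replicate block (0.41). In the fit of the 6 libraries compared it was -0.26 (0.00621). The difference from the sum passed in every alternative run.

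The 184 genes below the larger effect moved less in the combined treatment than with EST alone, which is the rule that picked them. The medians given here come from the same values. Of the 184, 88 were no longer told apart from the larger effect with the replicate block, 69 and 68 without Vector+EST library 1 or 3, and 68 without SREBP2+EST library 1. The 117 lower genes had a median log2 value of -1.53 with EST alone, -0.94 with SREBP2 alone and -1.02 combined. The 67 higher genes had medians of 1.13, 0.90 and 0.90. Lrp8 (16975), a receptor for apolipoprotein E, stood at 74.0, 73.6 and 70.7 CPM in Vector, 19.5, 17.9 and 18.9 CPM with EST alone, 43.0 to 49.7 CPM with SREBP2 alone and 51.7, 40.4 and 39.6 CPM in SREBP2+EST. The combined log2 fold change was -0.73 ± 0.08, 1.22 above that of EST alone (edgeR adjusted p = 4.97e-08). Clec10a (17312), a lectin, stood at 16.7, 14.9 and 15.4 CPM in Vector, 1.65 to 1.80 CPM with EST alone and 11.7, 9.48 and 9.96 CPM in SREBP2+EST, 2.60 above EST alone. Micall2 and Fhl3, proteins with LIM domains, lay 1.44 and 1.10 above EST alone. Abca1 (11303), the cholesterol exporter, stood at 9.59, 10.2 and 10.7 CPM in Vector, 1.05 to 1.80 CPM with EST alone and 6.50, 5.17 and 4.90 CPM in SREBP2+EST, 2.00 above EST alone. Of the 3 tested sterol efflux genes, against 38.6% higher and 34.2% lower among all genes tested, 1 was higher (Nr1h2, by 0.30) and 2 were lower (Abca1, by a log2 value of -0.88, and Apoe, -1.13). Other list members in this class were Epb41, Il4ra, Cpa3, Plek, Trib3 and Cish, which were lower, and Ccne1, the cyclin E1 gene, which was higher by 1.01.

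Of 40 ribosome biogenesis genes 34 were lower and 4 were higher, against 34.2% and 38.6% of genes tested, with a median log2 value of -0.98. The medians were -0.85 for EST alone, -0.89 for SREBP2 alone and -1.69 for the sum, and 30 of the 31 genes over 1.5-fold were under the sum and not told apart from the larger effect, against 78.1% of all genes over 1.5-fold (62.6% without the pair of libraries). Rrp1b (72462), a nucleolar processing factor, stood at 143, 144 and 153 CPM in Vector and at 45.9, 38.1 and 35.5 CPM in SREBP2+EST, and Ubtf (21429), the upstream binding factor of RNA polymerase I, at 329, 331 and 343 CPM and at 110, 100.5 and 90.3 CPM. Utp20 (70683), a subunit of the small subunit processome, was the gene between the larger effect and the sum, at 144, 142 and 143 CPM in Vector, 67.6 to 76.4 CPM with EST alone, 71.5 to 78.1 CPM with SREBP2 alone and 69.2, 63.6 and 59.9 CPM in SREBP2+EST. Its combined log2 fold change of -1.15 ± 0.06 was 0.18 beyond that of EST alone (edgeR adjusted p = 0.0343). This call was kept without the pair of libraries and lost with library totals, with the replicate block, and without any 1 of Vector+EST libraries 1, 3 and 5 and SREBP2+EST libraries 2 and 5.

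Of 12 JAK-STAT genes 9 were lower and 3 were higher, against 34.2% and 38.6% of genes tested, with medians of -1.09 combined, -1.03 for EST alone, -1.01 for SREBP2 alone and -2.04 for the sum. Osm, a cytokine, and Pim1, a kinase induced by STAT5, changed by -2.44 and -1.78, and Stat5b was 1.46 higher. Of 16 G1 cell cycle genes 10 were lower and 4 were higher, to be read against the same shares. Cdkn1b (12576), the p27 inhibitor of cyclin-dependent kinases, stood at 30.3, 27.2 and 24.3 CPM in Vector and at 107, 128 and 127 CPM in SREBP2+EST (log2 fold change 2.15 ± 0.09), and Ccnd2, cyclin D2, changed by -1.61. Of 12 amino acid stress genes 4 were higher and 6 were lower, against 38.6% and 34.2% of genes tested, from Ddit3 (1.08) to Trib3 (-2.54), with a median of -0.15.

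Of 6 tested mast and myeloid genes 5 were lower and 1 was higher, against 34.2% and 38.6% of genes tested, with Gzmb, granzyme B, at -4.67 and Il4ra, the interleukin-4 receptor, at -3.42. The exception was Csf2rb (12983), the common β chain of cytokine receptors, which stood at 68.1, 65.3 and 65.5 CPM in Vector, 456 to 492 CPM with EST alone, 787 to 1137 CPM with SREBP2 alone and 1104, 759 and 781 CPM in SREBP2+EST (log2 fold change 3.73 ± 0.14). Of 7 tested megakaryocyte genes 4 were lower, among them Itga2b (-2.10) and Gp9 (-2.22), and 2 were higher, Pf4 (2.23) and Gp1ba (1.53).

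**Figure D4:**
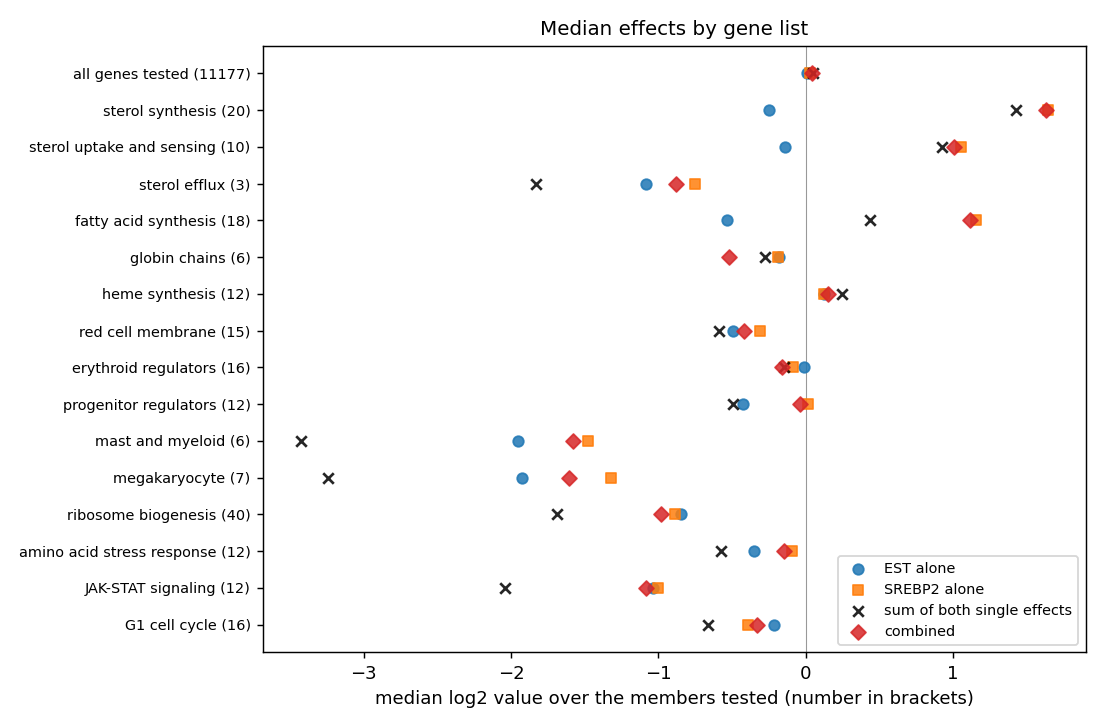
Median log2 value over the tested members of each gene list (vertical axis, number tested in brackets) for EST alone, SREBP2 alone, the sum of both per gene, and the combined effect. The combined median of sterol synthesis lies at 1.63 beside SREBP2 alone at 1.64, and that of ribosome biogenesis at -0.98 near both single effects and away from the sum at -1.69.

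The 9 lower genes beyond the sum were of a different kind. They include Pcsk1n, Sncb, Aplp1, Tspan7, Hoxb8, Thy1, Gfap and Eef1a2, several of which are known from neural cells, and all 9 stood at low level, at most 7.06 CPM in any library. Sncb, β-synuclein, stood at 0.872, 1.07 and 1.48 CPM in Vector and at 0 CPM in each SREBP2+EST library. It was also at 0 CPM in Vector+EST library 5, while Vector+EST libraries 1 and 3 had 1.24 and 1.25 CPM and the SREBP2 libraries 0.976 to 1.52 CPM. Gfap, an intermediate filament gene of astrocytes, stood at 4.93, 4.18 and 7.06 CPM in Vector and at 1.57, 0.539 and 0.700 CPM in SREBP2+EST, with 1.43 CPM in Vector+EST library 5. Col1a1, a collagen gene of fibroblasts, showed the opposite split, at 0.0513, 0.051 and 0 CPM in Vector and 6.50, 13.8 and 6.84 CPM in SREBP2+EST, with 13.4 CPM in Vector+EST library 5 and at most 0.0542 CPM in the other 5 libraries. Col3a1 and Fn1 were split the same way, and Col1a2 and Thy1, also on the fibroblast list, were lower in SREBP2+EST than in Vector. Pdgfrb, on the same list, did not follow the split, with at most 0.159 CPM in every Vector and Vector+EST library. It stood at 4.61, 8.45 and 8.30 CPM in SREBP2 and at 9.15, 5.33 and 5.01 CPM in SREBP2+EST. Col1a2 stood at 18.9, 19.9 and 19.6 CPM in Vector and at 6.99, 7.97 and 5.76 CPM in SREBP2+EST, with 3.87 to 7.38 CPM in the other 6 libraries, and Thy1 at 1.44, 1.43 and 1.43 CPM in Vector and at 0, 0 and 0.0539 CPM in SREBP2+EST. The 11 fibroblast markers in the table summed to 20.7 to 21.5 CPM in Vector, 6.24, 6.17 and 36.8 CPM in Vector+EST libraries 1, 3 and 5, 10.1 to 16.0 CPM in SREBP2 and 23.9 to 40.6 CPM in SREBP2+EST, and between 1 and 2 of them were at 0 in SREBP2+EST against 4 to 7 in Vector. The 10 neural markers summed to 11.5 to 13.0 CPM in Vector, 2.07 to 3.35 CPM in Vector+EST, 3.96 to 5.96 CPM in SREBP2 and 3.34 to 3.47 CPM in SREBP2+EST. Tubb3 alone gave 8.52, 7.85 and 7.58 CPM of the Vector sums. It stood at 1.03 to 2.55 CPM in every treated library, Vector+EST libraries 1 and 3 among them, and so did not follow the split. For Vector against SREBP2+EST the split of the 9 lower genes follows the groups, so for these 9 genes it cannot be told apart from the treatment. Leaving out Vector+EST library 5 raised the count beyond the sum from 69 to 89. Dnm1 and Mt3, 2 of the 3 genes above the larger effect whose sum was not rejected, stood at low levels, and the other was Zfp994, at 44.7, 44.9 and 43.6 CPM in Vector and 30.8, 25.2 and 25.7 CPM in SREBP2+EST.

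**Figure D5:**
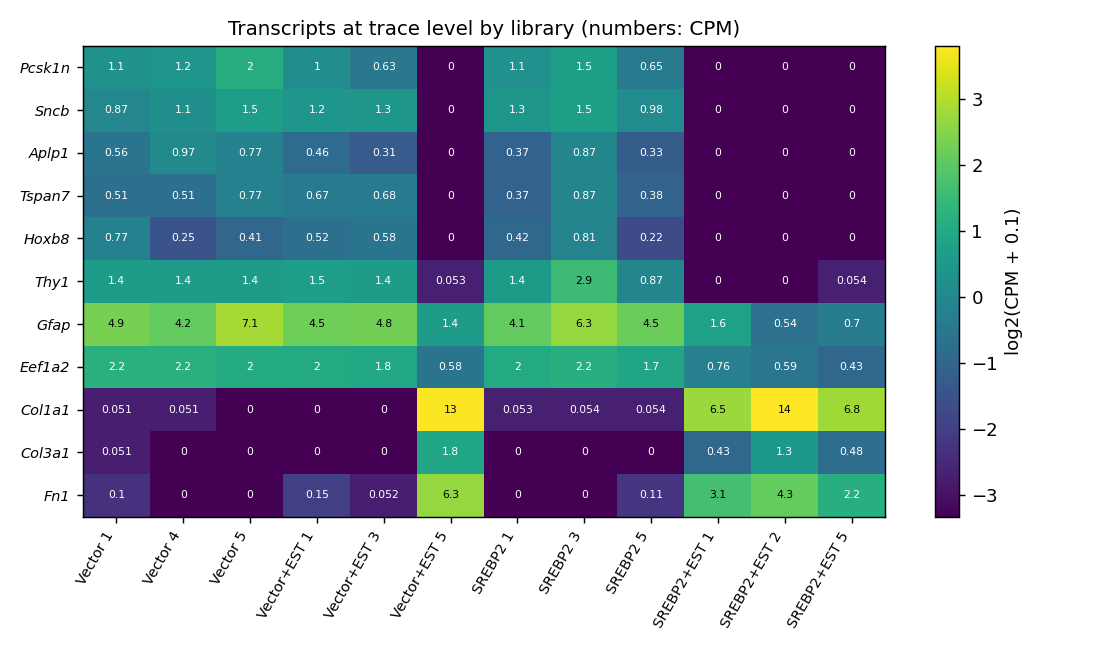
Log2(CPM + 0.1) as colour and CPM as numbers for 8 lower genes beyond the sum and 3 fibroblast genes (vertical axis) in each of the 12 libraries (horizontal axis). The first 8 genes are lowest, and the last 3 highest, in Vector+EST library 5 and all 3 SREBP2+EST libraries.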

How the data were processed

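Messenger RNA of 12 G1E-ER4 libraries, 3 in each of 4 groups, was sequenced by the submitters. The authors deposited estimated counts per gene as RSEM gives them, with no normalization, of which 66.5% of values were whole. The submitters' processing notes name HISAT2 2.0.4, Bowtie2 2.2.5, RSEM 1.2.12, DESeq2 1.4.5 and the build GRCm38.p6, without giving the role of each tool. Groups came from the sample titles, and columns were matched to groups by their header names. Header numbers differ from the replicate numbers of the titles and only name the libraries.

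Estimated counts were first rounded to integers. Of 17210 genes, 11177 passed filterByExpr and 6033 were left out. One model over all 12 libraries was fitted with edgeR 4.0.16 (R 4.3.3), with TMM scaling and the quasi-likelihood F-test, with Benjamini-Hochberg adjusted p under 0.05 as the threshold. The contrasts were the combined effect, both single effects, the combined effect minus each of them, and the combined effect minus their sum. Standard errors and 95% intervals are Wald values from the fit. Genes past the threshold with an estimated fold over 1.5 were classed by the last 3 contrasts, as the report describes. Intervals of counts and the limit of 3 counts cover counting error only.

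The groups, gene lists and genes named were chosen with earlier results of these data known. Named genes were a fixed set, the 6 largest rises and falls whose average log2 CPM reached 3, the leading genes of each class and list members. Genes singled out beyond these, such as Sncb, Gfap and Col1a1, were chosen after their values were seen. Some genes that these rules name are not reported here. On simulated counts for 11177 genes, the fold set was that of the larger single effect, and the combined effect was larger or smaller than it for some genes. Changed genes were drawn only from those above a limit on average level. With that fold at 1.5 and 2, the fit recovered 86% and 98% of changed genes for the combined effect. For the combined effect minus the sum it recovered 66.7% and 83.3%. Promoter windows and coordinates are RefSeq's for GRCm38.p6. Alternatives covered the tool (DESeq2 1.42.0), scaling, filter, fold, scale of the sum, a block on the header number and the leaving out of libraries. Leaving out Vector+EST library 5, SREBP2 library 1 and SREBP2+EST library 1 together was chosen after seeing the data.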

Additional observations from a re-analysis of the deposited data

Results flagged for a closer look

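The effect of EST in SREBP2 cells differed from that in Vector cells, by the test of that difference itself, for 6591 genes. Among the genes followed in every alternative, the difference, on the log2 scale and equal to the combined effect minus the sum of the single effects, was positive for Gata2 (2.098), Gata1 (1.866), Myc (1.527), Nfe2 (1.246), Fasn (0.899), Hba-a1 (0.7898), Hmgcs1 (0.7697), Sqle (0.5662) and Kit (0.3307). It was negative for Alas2 (-1.433) and Srebf2 (-0.3051). For Gata2, Gata1, Myc, Hba-a1 and Kit a positive difference means a fall smaller than the sum, and for Hmgcs1, Sqle and Fasn a rise larger than the sum. Groups of 3 libraries were too small to look for single outlying libraries by gene.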

How the results depend on the processing

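The number of genes that differed between SREBP2+EST and SREBP2 was 0 with TMM scaling and all libraries, 12 with DESeq2, 22 with no filter on low counts, 18 without Vector+EST library 5, 1567 without SREBP2 library 1 and SREBP2+EST library 1, and 1843 without all 3 of these libraries. Without the pair, genes between the larger effect and the sum numbered 391, below the larger effect 300, above the larger effect with the sum not rejected 37, and below it with the sum not rejected 14. Without all 3 libraries these were 403, 340, 43 and 18. Between the larger effect and the sum, the count was 2 with DESeq2, library totals, no filter, at least 10 counts in every library, a fold of 1.2 or a linear sum, 3 with RLE scaling, and 0 without Vector+EST library 5; the 2 with library totals do not include Utp20. Above the larger effect with the sum not rejected, it was 5 with no filter, 0 with at least 10 counts, 6 without Vector+EST library 5 and 11 with a linear sum. Neither the sum nor the larger effect was rejected for 920 genes with no filter, 297 with at least 10 counts, 1254 at a fold of 1.2 and 343 at a fold of 2. A linear sum left 32 genes beyond it. At folds of 1.2 and 2, the genes classed numbered 6610 and 2034, those under the sum and not told apart from the larger effect 4895 and 1554, and those below it 353 and 86. With a margin of 1.2-fold in place of 1.5, intervals lay near the larger effect for 1958 genes, against 3087.

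Libraries with the same header number did not deviate together (r from -0.17 to 0.07 across genes), so the numbers do not pair them. With the replicate block, 1208 genes differed from EST alone, 43 went beyond the sum, 80 fell below the larger effect, 0 lay between it and the sum and 1 above it with the sum not rejected.

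Leaving out 1 library at a time gave 7721 to 8346 genes for the combined effect, 6230 to 6592 against the sum, 1773 to 3084 against EST alone and 0 to 18 against SREBP2 alone. The genes over 1.5-fold numbered 3820 to 4048, with 2861 to 3093 under the sum and not told apart from the larger effect, 121 to 289 below it, 62 to 89 beyond the sum, 0 to 40 between, 1 to 7 above the larger effect and 591 to 741 with neither rejected. The lowest and highest counts below the larger effect came without Vector+EST library 3 and without SREBP2 library 1.

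Among the genes followed, the combined effect minus the sum changed sign only where it had not passed the threshold in the main fit. For Hbb-b2 this difference did pass in an alternative, and it ranged from -0.28 to 0.12 over all of them. It was 0.12 for Hbb-b2 and 0.11 for Lmtk3 with the block, -0.050 for Hbb-b1 and 0.010 for Lmtk3 without the pair of libraries, and -0.059 for Hbb-b1 without all 3. Leaving out 1 library at a time it ranged from -0.066 to 0.080 for Hbb-b1, -0.21 to 0.079 for Hbb-b2, -0.32 to 0.26 for Lmtk3 and -3.49 to 0.35 for Ppef1. The causes were not tested. Genes near 3 counts gave differences from the sum with wide intervals.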
